A study of Arabidopsis thaliana with 8 samples.

Results

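A set of 7 closely related Arabidopsis thaliana transcription factor genes were followed: BEE1 (AT1G18400), BEE2 (AT4G36540), BEE3 (AT1G73830), CESTA (AT1G25330), HBI1 (AT2G18300), CIB1 (AT4G34530) and CIB5 (AT1G26260). They were chosen by name, and every array probe whose accession mapped to one of these loci was used, which gave 9 probes for 7 genes of the 26716 loci with a probe. BEE2 and CIB1 had 2 probes each. By their locus identifiers, 4 of the genes lie on chromosome 1, 2 on chromosome 4 and 1 on chromosome 2. All but CESTA were detected on all 8 arrays, so 6 of the 7 were among the 22082 genes tested.

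These proteins belong to a subfamily of basic helix-loop-helix (bHLH) factors, which bind DNA as dimers. The BEE genes were named for early induction by brassinosteroid, the steroid hormone that drives cell elongation, and CESTA and BEE1 are known to promote CPD, a brassinosteroid synthesis gene. HBI1 promotes elongation and is held inactive by the small protein IBH1, which PRE proteins in turn sequester. CIB1 and CIB5 bind the blue-light receptor CRY2, and CIB1 promotes transcription of the flowering gene FT.

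The 8 single-colour arrays measured total RNA of seedlings in the Col-0 background. All seedlings, controls included, had been kept for 14 days on 1 µM brassinazole, an inhibitor of brassinosteroid synthesis. One group of 4 samples carried bil1-1D (bzr1-1D), a dominant allele of the brassinosteroid transcription factor gene BZR1, and received 1 µM brassinolide, an active brassinosteroid, for 3 hours. The other group of 4 samples was wild type and received the solvent DMSO for the same 3 hours. Genotype and treatment therefore changed together, and their parts in any difference cannot be told apart. Each group also had its own slide and scan, and these cannot be told apart from the group either. The labels are silent on whether the 4 samples were grown as separate cultures, and the p-values accordingly cover only the variation among the samples at hand, part or all of which may be technical. In whole seedlings, fewer cells of a type and less RNA per cell cannot be told apart.

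The mutant slide was the dimmer one, with an array 75th percentile of 3027 to 3820 signal units against 4635 to 6149 on the wild-type slide. The share of probes well above background was 74.6% to 76.0% and 79.6% to 80.8%, respectively. Levels are given as normalized log2 signal, in which 0 is the array's own 75th percentile, and changes are log2 differences of the mutant with brassinolide minus the wild type with DMSO, ± SE. Pearson correlations across genes were 0.990 to 0.996 within a group and 0.967 to 0.976 between groups. Wild-type replicates 1 and 3 stood somewhat apart, with an SD of within-group deviations over 20978 genes of 0.213 and 0.207 against 0.136 to 0.167 on the other arrays. The scanner software had marked wild-type replicates 1 and 2 and mutant replicate 4 for evaluation. The seedling label was borne out by 3 of 3 leaf and 4 of 4 root marker genes well above background on all 8 arrays, while 1 of 2 seed markers and 0 of 2 pollen markers were. The summed scaled signal of the leaf markers was 247 to 279 in the mutant and 216 to 266 in the wild type, and that of the root markers was 25.2 to 29.1 and 31.98 to 39.1. The root sum is mostly PYK10 (4.70 ± 0.09 against 5.13 ± 0.13), which fell by 0.43 ± 0.08, while COBL9 (-0.39 ± 0.26), EXPA7 (-0.21 ± 0.30) and SCR (0.10 ± 0.04) were not called. Of the leaf markers, RBCS1A rose by 0.18 ± 0.06 and CAB1 by 0.24 ± 0.08 (limma adjusted p = 0.0247 and 0.0402), while CAB3 (-0.11 ± 0.08) was not called. The seed sum was 0.0108 to 0.0152 and 0.00628 to 0.00983, and the seed storage gene CRA1 rose by 0.77 ± 0.16 (limma adjusted p = 0.00461). CRA1 was faint, at -6.46 in the mutant and -7.23 in the wild type. Detection began at -7.62 to -7.44 on the mutant arrays and at -8.75 to -8.63 on the wild-type arrays. The part of tissue make-up in the changes below was not tested.

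On the brighter or sole probe of each gene, transcripts of BEE1, BEE2, BEE3, HBI1 and CIB1 were higher in the mutant with brassinolide, by 1.60-fold to 2.39-fold. The CIB5 transcript was 1.36-fold lower. The dimmer BEE2 probe differed by 0.40 and was not called (limma adjusted p = 0.191). CESTA was not detected well enough to be compared. Across all tested genes 30.3% rose and 25.6% fell at an adjusted p under 0.05 (limma), so 55.9% changed and a call on its own does not set these genes apart. The median change was 0.88 over the 6 tested genes and 0.04 over all tested genes. When the arrays were scaled to their spike-in RNAs instead, 1510 genes rose and 2686 fell in place of 6681 and 5658. The same 5 genes of the group still rose while the call of CIB5 was lost. Without the arrays marked for evaluation, BEE1, BEE2 and HBI1 lost their calls (limma adjusted p = 0.0570, 0.0663 and 0.0935).

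The BEE genes are described first, because they were named for their response to the hormone. BEE1 signal was 0.77, 1.19, 0.96 and 0.83 in the 4 mutant samples and -0.47, -0.12, 0.56 and -0.03 in the 4 wild-type samples. Every mutant sample lay above every wild-type sample, and wild-type replicate 3 came within 0.21 of the lowest mutant sample. BEE1 rose by 0.95 ± 0.21 (1.94-fold; limma adjusted p = 0.00498), from -0.02 ± 0.43 to 0.94 ± 0.19 (mean ± SD, n = 4 each). A rise of this size or more was seen in 3.58% of the tested genes.

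BEE3 signal was 0.53, 0.88, 0.40 and 0.73 in the mutant samples and -0.70, -0.51, 0.08 and -0.40 in the wild-type samples. The gap between the groups, 0.32, was the widest of the 6 tested genes. BEE3 rose by 1.01 ± 0.17 (2.02-fold; limma adjusted p = 0.00166), from -0.38 ± 0.33 to 0.63 ± 0.21, and 3.09% of the tested genes rose by as much. BEE3 kept its call when the 3 arrays marked for evaluation were left out (change 0.76, limma adjusted p = 0.0414).

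BEE2 gave different answers on its 2 probes. On the brighter one the signal was -0.58, 0.12, -0.02 and 0.02 in the mutant samples and -1.90, -1.67, -0.72 and -1.22 in the wild-type samples. The groups did not overlap, with mutant replicate 1 the lowest of its group and wild-type replicate 3 the highest of its own. By this probe BEE2 rose by 1.26 ± 0.27 (2.39-fold; limma adjusted p = 0.00453), from -1.38 ± 0.52 to -0.12 ± 0.32, which made it the largest change of the group, reached by 1.75% of the tested genes. On the dimmer probe the signal was -3.70, -3.34, -3.46 and -3.51 in the mutant samples and -4.45, -4.23, -3.26 and -3.70 in the wild-type samples. Here the groups overlapped, with wild-type replicate 3 above all 4 mutant samples. Wild-type replicate 4 (-3.6975) also lay just above mutant replicate 1 (-3.7037). The difference on that probe was 0.40 ± 0.24 and was not called (limma adjusted p = 0.191 over 34146 probes; exact two-sided permutation p = 0.286). Without wild-type replicate 3 it was 0.62 and was called (limma adjusted p = 0.0230), the only setting tried that called it. Without the arrays marked for evaluation it was -0.02 (limma adjusted p = 0.924), with no rise left on this probe. Averaging both probes gave BEE2 a smaller rise of 0.83 (limma adjusted p = 0.0232), so the size of the BEE2 change depends on the probe.

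CESTA, which binds the CPD promoter, was well above background on 1 of the 8 arrays, wild-type replicate 1. Its processed signal was 4.11 to 4.87 units on the mutant arrays and 21.7, 3.47, 11.1 and 5.90 units on wild-type replicates 1 to 4. On the normalized scale this was -9.66 to -9.47 in the mutant and -9.97 to -8.15 in the wild type, where detection began at a signal of -7.62 to -7.44 (mutant) and -8.75 to -8.63 (wild type). The groups overlapped (exact two-sided permutation p = 0.429), and wild-type replicate 2 lay at the floor set for the logarithm. No fold change is given for CESTA, and a difference in its transcript was not detectable at this signal.

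**Figure D1:**
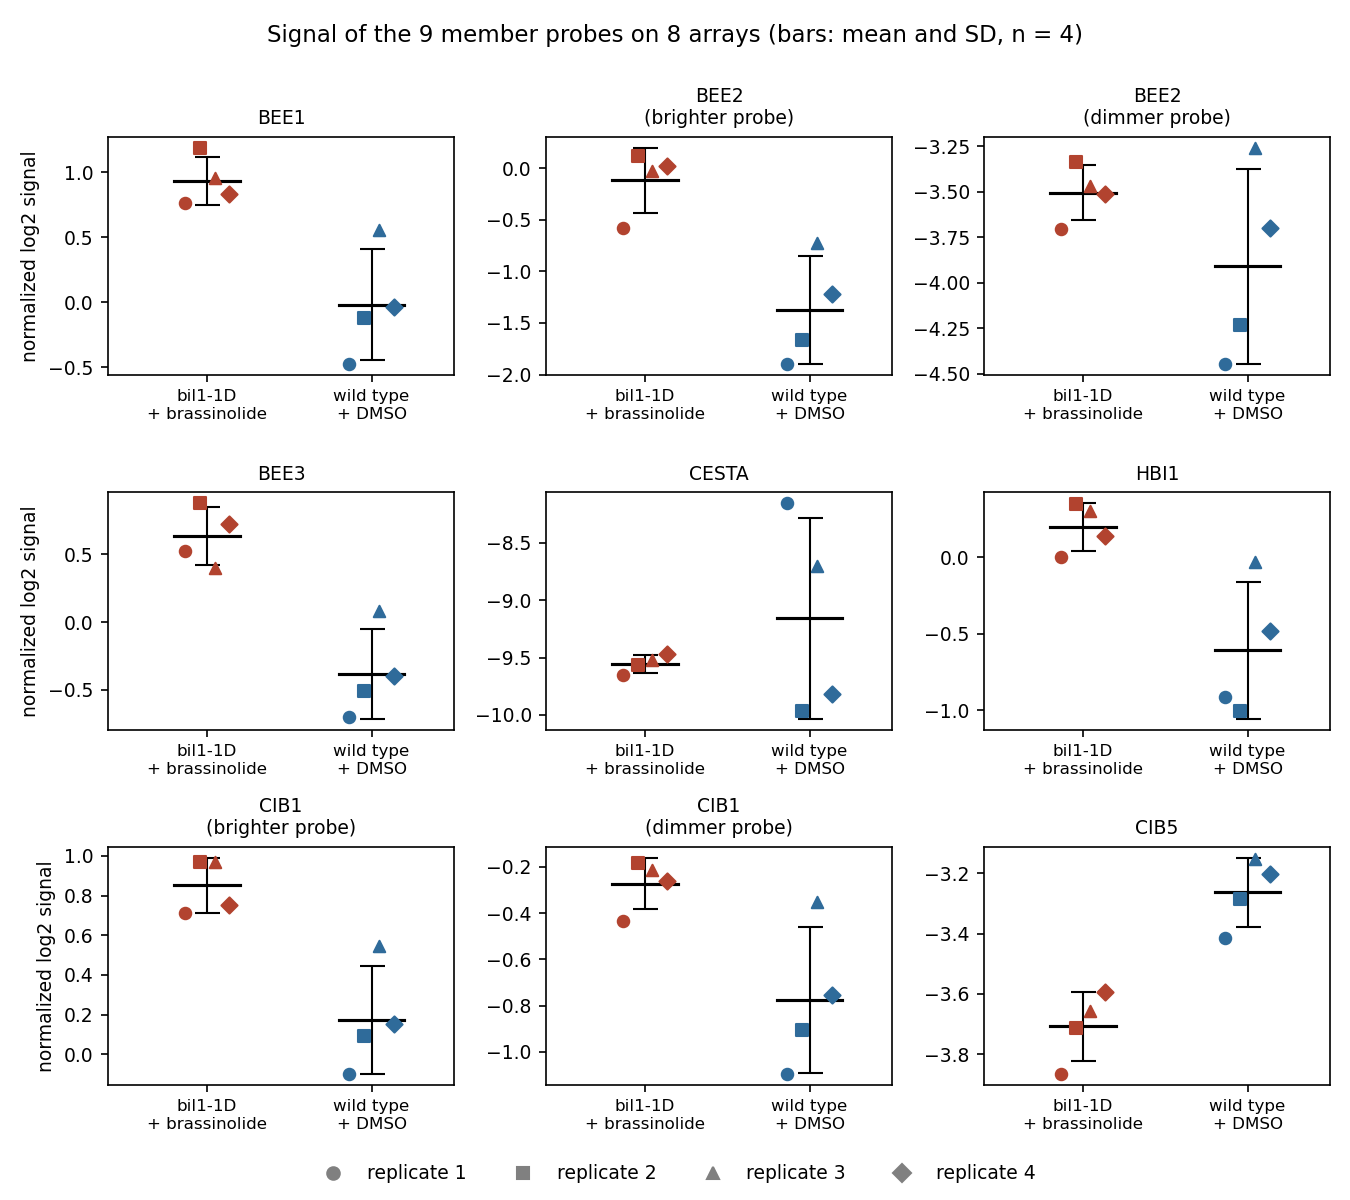
Normalized log2 signal (y axis, 0 is the array's 75th percentile) of each of the 9 probes in the 4 samples of bil1-1D with brassinolide and the 4 of wild type with DMSO (x axis). Marker shape gives the replicate, the short line the mean and the bar the SD. The groups are apart for the brighter or sole probe of BEE1, BEE2, BEE3, HBI1, CIB1 and CIB5, and overlap for CESTA and for the dimmer probes of BEE2 and CIB1.

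HBI1, the elongation factor inhibited by IBH1, had the narrowest margin. Its signal was 0.00, 0.34, 0.30 and 0.14 in the mutant samples and -0.92, -1.01, -0.03 and -0.48 in the wild-type samples. The groups did not overlap, but only 0.033 separated mutant replicate 1 from wild-type replicate 3. HBI1 rose by 0.80 ± 0.21 (1.75-fold; limma adjusted p = 0.0116), from -0.61 ± 0.45 to 0.20 ± 0.16. In all, 5.28% of the tested genes rose by as much.

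CIB1, the activator of FT, had the smallest of the 5 rises. On its brighter probe the signal was 0.71, 0.97, 0.97 and 0.75 in the mutant samples and -0.10, 0.09, 0.55 and 0.15 in the wild-type samples. The groups did not overlap, and wild-type replicate 3 was again the nearest to the mutant samples. CIB1 rose by 0.68 ± 0.14 (1.60-fold; limma adjusted p = 0.00363), from 0.17 ± 0.27 to 0.85 ± 0.14, and 7.34% of the tested genes rose by as much. On its dimmer probe the signal was -0.43, -0.18, -0.21 and -0.26 in the mutant samples and -1.10, -0.90, -0.35 and -0.75 in the wild-type samples. Wild-type replicate 3 lay above mutant replicate 1 there, so the groups overlapped (exact two-sided permutation p = 0.0571). That probe rose by 0.50 ± 0.15 (limma adjusted p = 0.0208), a call lost without mutant replicate 2 (0.47, limma adjusted p = 0.0509), mutant replicate 3 (0.48, limma adjusted p = 0.0515) or wild-type replicate 2 (0.46, limma adjusted p = 0.0562) and with spike-in scaling (0.42, limma adjusted p = 0.153). The call was also lost without the arrays marked for evaluation (0.28, limma adjusted p = 0.206).

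CIB5, the other CRY2-binding factor, differed in the opposite direction. Its signal was -3.87, -3.71, -3.66 and -3.59 in the mutant samples and -3.41, -3.29, -3.15 and -3.20 in the wild-type samples. All mutant samples lay below all wild-type samples, with a gap of 0.18 and a small spread in both groups. CIB5 fell by 0.44 ± 0.08 (limma adjusted p = 0.00194), from -3.26 ± 0.11 to -3.71 ± 0.12, and 15.2% of the tested genes fell by as much. With spike-in scaling the difference was -0.53 but was not called (limma adjusted p = 0.0746). The normexp background correction gave -0.22 with an offset of 50 (limma adjusted p = 0.00978) and -0.32 on negative-control spots (limma adjusted p = 0.00968). With the offset of 50, its fitted background mean was -934, -1158 and -599 on wild-type replicates 2, 3 and 4. On the other arrays that mean was 4.47 to 13.6, so the size of the change under this setting is uncertain.

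For the brighter or sole probe of each of the 6 tested genes, the exact two-sided permutation test gave p = 0.0286, the smallest value that 4 samples against 4 can give. Complete separation with the mutant higher was found in 28.2% of all tested genes and with the mutant lower in 24.0%, against 5 and 1 of these 6. Among the 8 probes tested, 6 rose, 1 fell and 1 was not called, where the shares over all tested probes were 26.0% and 29.4%. A rise of 2-fold or more was called for BEE2 and BEE3, 2 of the 6 genes, and for 3.07% of all tested genes. A fall of that size was called for 5.02%. BEE3 was just past this cut at 1.01 and fell short of it with spike-in scaling (0.93) or without wild-type replicate 1 (0.91). BEE2 passed it on its brighter probe only, with 0.40 on the dimmer probe and 0.83 for the mean of both.

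Before scaling, the picture was less distinct, because the mutant slide was dimmer throughout. On the brighter probe the unscaled processed signal of CIB1 was 5813 to 6769 units on the mutant arrays and 5516 to 6773 units on the wild-type arrays, ranges that almost coincide. On its dimmer probe it was 2615 to 3042 units and 2770 to 3632 units, so there the wild type reached higher. That of HBI1 was 3730 to 4383 units and 2579 to 4531 units, and that of BEE1 was 5874 to 7881 units and 4426 to 6834 units. The unscaled ranges of BEE3 and of the brighter BEE2 probe overlapped as well, with mutant samples reaching higher. The dimmer BEE2 probe had 274 to 342 units in the mutant and 276 to 485 units in the wild type, which reached higher on this probe. CIB5 was apart without scaling, at 240 to 286 units on the mutant arrays and 521 to 578 units on the wild-type arrays. Those unscaled values include the dimmer mutant slide, and the scaled change of CIB5 was -0.44. The 5 rises and the fall of CIB5 are therefore changes relative to the rest of each array. The 5 rises had the same sign and kept their calls under each of the other scalings tried, namely quantile, median, spike-in and cyclic loess. With spike-in scaling, which moved the median of all genes to -0.05, the rises were 0.87 for BEE1, 1.17 for BEE2, 0.93 for BEE3, 0.72 for HBI1 and 0.59 for CIB1.

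On the brighter or sole probe of each gene, the order by signed change was BEE2, BEE3, BEE1, HBI1, CIB1 and CIB5. The place of BEE2 rests on its brighter probe, since the mean of both probes (0.83) lies below BEE3 and BEE1 and the dimmer probe (0.40) below all other rises. Most neighbours in this order could not be told apart. The change of BEE2 exceeded that of BEE3 by 0.24 ± 0.18 (SE over the paired differences within arrays), and the changes of BEE3 and BEE1 differed by 0.06 ± 0.11. BEE1 exceeded HBI1 by 0.15 ± 0.11, and HBI1 exceeded CIB1 by 0.13 ± 0.12. The ends of the order were further apart, with BEE2 above CIB1 by 0.58 ± 0.18 on their brighter probes and CIB1 above CIB5 by 1.12 ± 0.12. These differences are a description of genes ordered by the same values and carry no test.

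**Figure D2:**
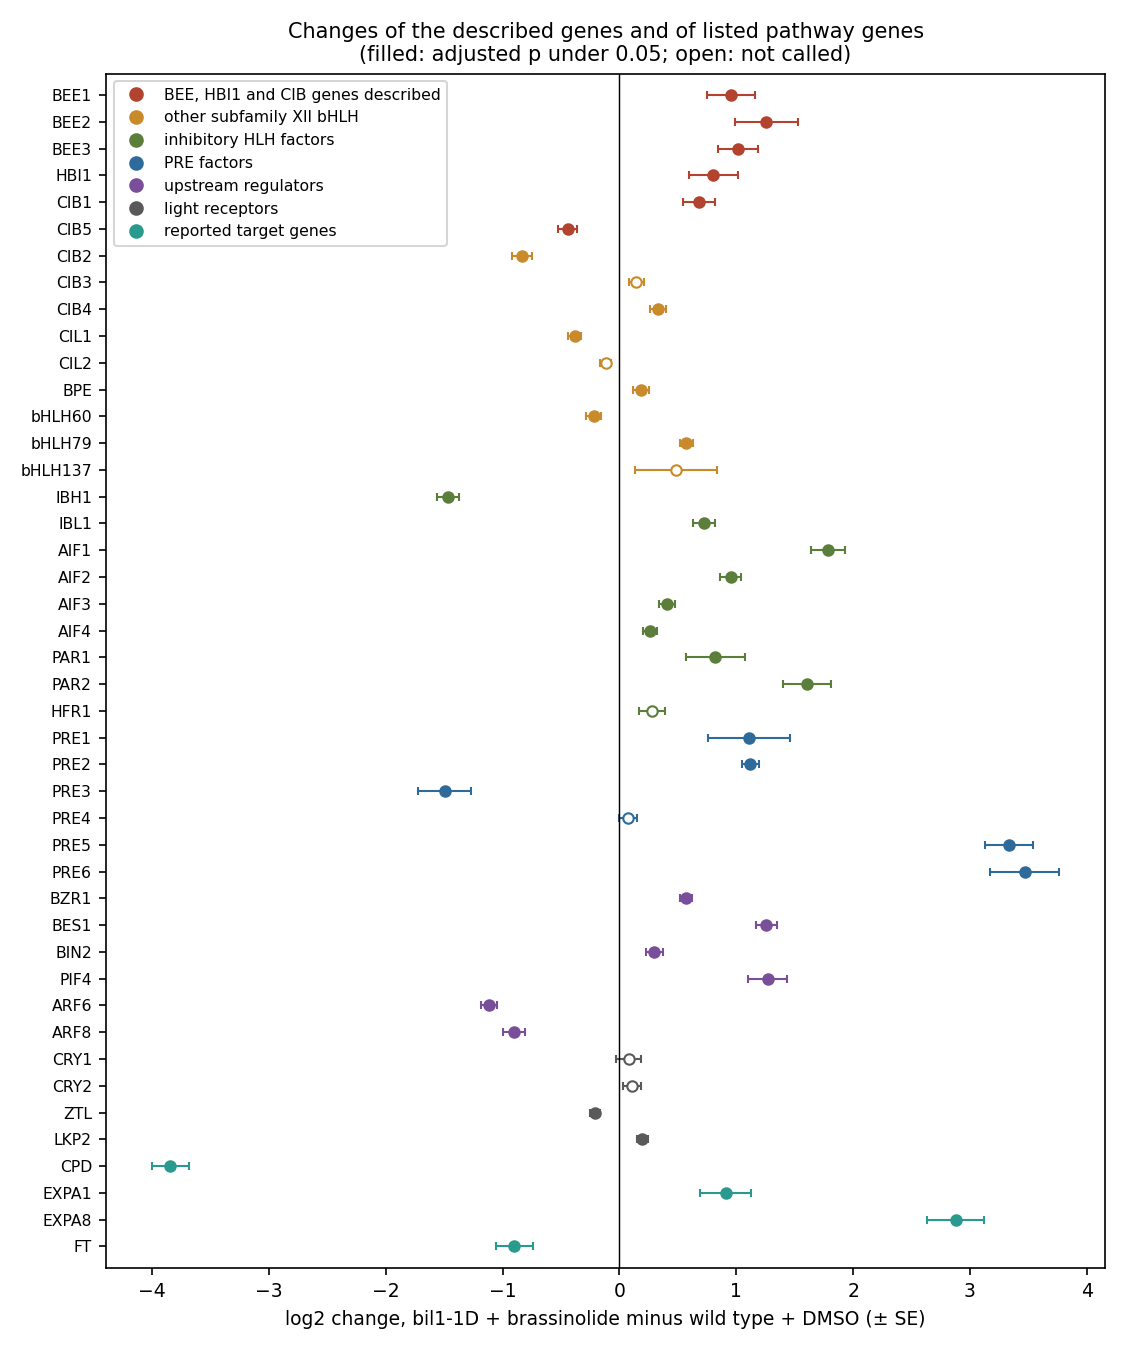
Change (x axis, log2 difference of bil1-1D with brassinolide minus wild type with DMSO, bars ± SE) of the 6 tested genes at the top and of 38 genes of related lists below them. Filled points passed an adjusted p of 0.05 by limma and open points did not. BEE1, BEE2, BEE3, HBI1 and CIB1 lie to the right of 0 and CIB5 to the left, while genes of several other lists lie on both sides.

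The genes also varied together among samples that carried the same label. Wild-type replicate 3 was the highest of the wild-type samples for all 6 tested genes, from 0.11 above the group mean for CIB5 to 0.65 above it for BEE2. Over 20978 genes detected on all arrays, that sample was the highest in 35.4%. Wild-type replicate 1 was the lowest for 5 of the 6, and for 40.8% of all genes; for HBI1 it was wild-type replicate 2. In the mutant, replicate 1 was the lowest for 5 of the 6 and for 26.3% of all genes, and replicate 2 was the highest for 4 of the 6 and for 20.9% of all genes. As a description over 8 arrays with group means removed, the correlation of deviations was 0.767 to 0.971 (median 0.891) for the 10 pairs among BEE1, BEE2, BEE3, HBI1 and CIB1. For the 5 pairs that include CIB5 it was 0.598 to 0.875, although CIB5 differed between the groups in the other direction. The genes share the same 8 arrays and the same scaling factors, so these values are not independent. The range over gene pairs at large was not computed. Wild-type replicate 3 was also the highest for genes of other lists, as for PRE6 (0.72 above its group mean), EXPA1 (0.58) and CAB1 (0.17), but not for AIF1 (-0.34).

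**Figure D3:**
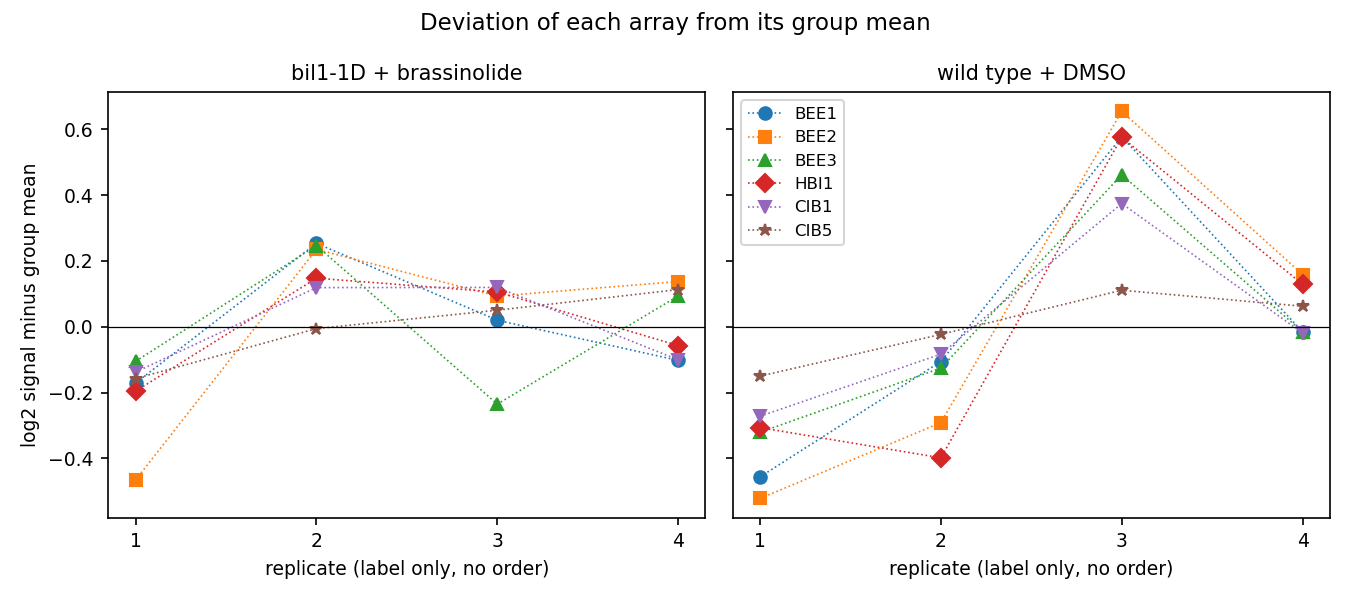
Deviation of each array from its group mean (y axis, log2 signal) for BEE1, BEE2, BEE3, HBI1, CIB1 and CIB5 in the 4 mutant samples and the 4 wild-type samples (x axis, replicate labels without order). The dotted lines only link points of one gene. Wild-type replicate 3 lies above its group mean for all 6 genes, by 0.11 to 0.65.

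Because wild-type replicate 3 pulled the wild-type means upward, every rise was larger without it. It was then 1.15 for BEE1, 1.48 for BEE2, 1.17 for BEE3, 1.00 for HBI1 and 0.80 for CIB1. Without wild-type replicate 1 the rises were 0.80, 1.08, 0.91, 0.70 and 0.59 in the same order of genes. Leaving out any 1 array kept the calls of all 6 genes. Leaving out both wild-type replicates 1 and 3, an alternative chosen after seeing the data, also left 5 rises and 1 fall. Without the 3 arrays marked for evaluation, wild-type replicates 3 and 4 were the only controls, and BEE1 (0.71, limma adjusted p = 0.0570), BEE2 (0.81, limma adjusted p = 0.0663) and HBI1 (0.47, limma adjusted p = 0.0935) were no longer called. BEE3, CIB1 on its brighter probe (0.53, limma adjusted p = 0.0468) and CIB5 (-0.57, limma adjusted p = 0.00859) kept their calls.

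**Figure D4:**
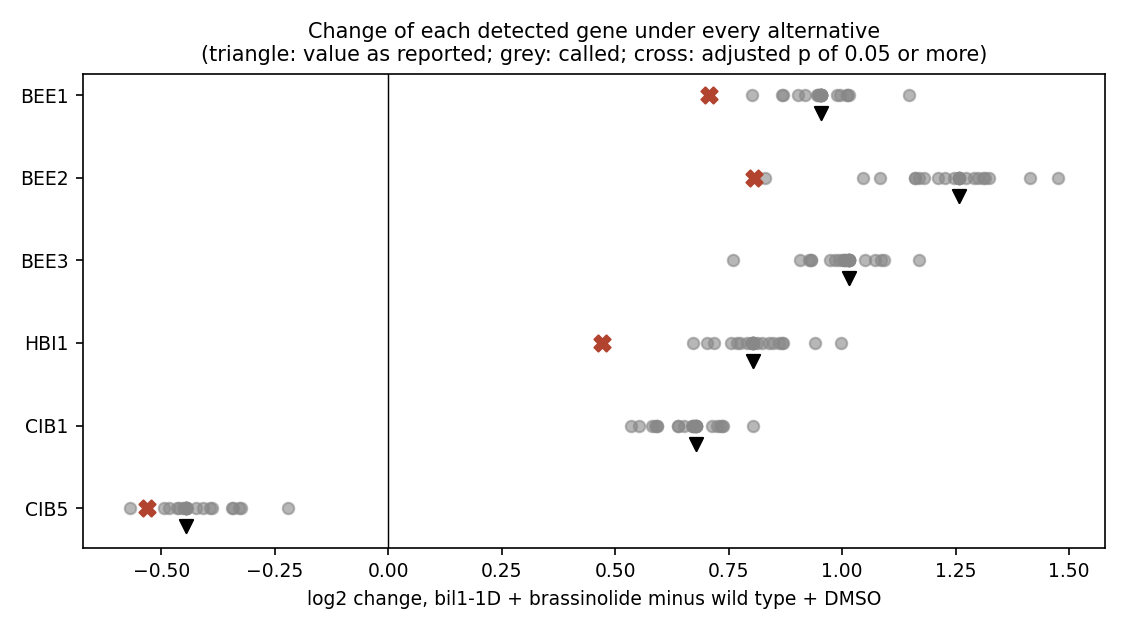
Change (x axis, log2 difference of bil1-1D with brassinolide minus wild type with DMSO) of BEE1, BEE2, BEE3, HBI1, CIB1 and CIB5 as reported (triangle) and under each of 24 other settings (circles; crosses where the adjusted p was 0.05 or more). No point changes side of 0, and the 4 crosses belong to BEE1, BEE2, HBI1 and CIB5.

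For each tested gene, the gene most like it over the 8 arrays was named among all genes detected on every array. These correlations join 2 separated groups, so they describe likeness and carry no p. AIRP1 (AT4G23450), a RING-type ubiquitin ligase gene, was nearest to BEE1 (Pearson r = 0.996) and changed by 0.49 ± 0.11. AT4G17810 was nearest to BEE2 (r = 0.997; change 0.96 ± 0.22) and AT1G67328 to BEE3 (r = 0.988; change 1.07 ± 0.13). EXPA1 (AT1G69530), an expansin gene, was nearest to HBI1 (r = 0.996; change 0.91 ± 0.22). AT1G18490 was nearest to CIB1 (r = 0.997; change 0.36 ± 0.08), and the ubiquitin-conjugating enzyme gene UBC22 (AT5G05080) to CIB5 (r = 0.994; change -0.21 ± 0.05).

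Of 9 other bHLH genes of the same subfamily tested, 3 rose, 3 fell and 3 were not called, with a median change of 0.15. Over all tested genes the shares that rose and fell were 30.3% and 25.6%. CIB2 fell by 0.84 ± 0.08 and CIL1 by 0.38 ± 0.05, as CIB5 did. CIB4 rose by 0.33 ± 0.07 and bHLH79 by 0.57 ± 0.06. CIB3 (0.15 ± 0.06), CIL2 (-0.12 ± 0.05) and bHLH137 (0.48 ± 0.35) were not called (limma adjusted p = 0.0876, 0.0564 and 0.270). BPE, a petal growth factor gene (0.18 ± 0.06), and bHLH60 (-0.22 ± 0.06) were called by limma, but BPE (0.16 to 0.19) lost its call without mutant replicate 1, 2 or 3 or wild-type replicate 2, 3 or 4, and bHLH60 (-0.21 to -0.19) without mutant replicate 3 or 4 or wild-type replicate 2 or 4. Among the CIB genes that were called, CIB1 and CIB4 were higher in the mutant and CIB2 and CIB5 lower. With its probes averaged, CIB4 showed 0.10 and was not called (limma adjusted p = 0.321). Spike-in scaling ended the calls of CIB4 (limma adjusted p = 0.507) and CIB5 (limma adjusted p = 0.0746).

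The inhibitory helix-loop-helix genes, whose products do not bind DNA well and block bHLH partners, mostly rose. Of 9 tested, 7 rose, 1 fell and 1 was not called, with a median change of 0.72. Over all tested genes 30.3% rose and 25.6% fell, and the list was chosen with earlier results of these data known. IBH1, the inhibitor of HBI1, fell by 1.47 ± 0.09 (limma adjusted p = 1.4e-05), and was -1.99, -1.66, -1.74 and -2.02 in the mutant samples against -0.26, -0.35, -0.44 and -0.47 in the wild-type samples. Its close homologue IBL1 rose by 0.72 ± 0.09. AIF1 rose by 1.79 ± 0.15, PAR2 by 1.60 ± 0.21, AIF2 by 0.95 ± 0.09, AIF3 by 0.41 ± 0.07 and AIF4 by 0.26 ± 0.06. PAR1 rose by 0.82 ± 0.25 (limma adjusted p = 0.0245), a call lost without mutant replicate 3 (0.78, limma adjusted p = 0.0593), mutant replicate 4 (0.77, limma adjusted p = 0.0611) or wild-type replicate 2 (0.72, limma adjusted p = 0.0656). HFR1 showed 0.28 ± 0.11 and was not called (limma adjusted p = 0.0671), although it was without wild-type replicate 3 (0.38, limma adjusted p = 0.00728).

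The PRE genes encode the proteins that sequester IBH1. Of 6 tested, 4 rose, 1 fell and 1 was not called, with a median change of 1.11, where 30.3% of all tested genes rose and 25.6% fell. PRE6 was 1.08, 1.87, 1.65 and 1.55 in the mutant samples and -2.51, -2.31, -1.21 and -1.68 in the wild-type samples, with mutant replicate 2 and wild-type replicate 3 again the highest of their groups. PRE6 rose by 3.47 ± 0.30, PRE5 by 3.34 ± 0.20 and PRE2 by 1.12 ± 0.07. With normexp at an offset of 50 the rise of PRE5 was 1.64 and that of PRE1 0.34, both still called. PRE3 fell by 1.497 ± 0.23, and PRE4 (0.07 ± 0.08) was not called. PRE1 rose by 1.11 ± 0.35, a call lost without mutant replicate 2 (1.02, limma adjusted p = 0.0660), mutant replicate 3 (0.92, limma adjusted p = 0.0703), wild-type replicate 1 (0.83, limma adjusted p = 0.0503) or wild-type replicate 2 (1.08, limma adjusted p = 0.0629).

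Among 6 genes for factors known to act upstream of these bHLH genes or with them, 4 rose and 2 fell. The shares over all tested genes were 30.3% and 25.6%. BZR1, whose altered form the mutant carries, rose by 0.57 ± 0.05, its homologue BES1 by 1.26 ± 0.09 and BIN2, the kinase that inhibits both, by 0.30 ± 0.07. PIF4, a light- and temperature-regulated bHLH factor that promotes elongation, was 1.19, 1.58, 1.44 and 1.34 in the mutant samples and -0.14, -0.21, 0.47 and 0.35 in the wild-type samples. It rose by 1.27 ± 0.17 (limma adjusted p = 0.000437), with wild-type replicate 3 once more the highest of its group. The auxin response factor genes ARF6 and ARF8 fell by 1.11 ± 0.07 and 0.90 ± 0.10, and their groups did not overlap. The blue-light receptor genes that pair with the CIB factors differed little. CRY1 (0.08 ± 0.11) and CRY2 (0.11 ± 0.08) were not called (limma adjusted p = 0.554 and 0.247), LKP2 rose by 0.20 ± 0.05 and ZTL fell by 0.21 ± 0.04.

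Genes known from earlier work as targets of these factors went both ways, with 2 of 4 rising and 2 falling. Of all tested genes, 30.3% rose and 25.6% fell. EXPA1, an expansin gene reported as bound by HBI1, was 2.59, 3.099, 3.04 and 2.85 in the mutant samples and 1.68, 1.59, 2.56 and 2.11 in the wild-type samples. It rose by 0.91 ± 0.22 (1.88-fold; limma adjusted p = 0.00862), and its call, like that of HBI1, was lost without the 3 marked arrays (0.57, limma adjusted p = 0.0940). EXPA8, the other target gene that rose, did so by 2.88 ± 0.24 (7.34-fold, limma adjusted p = 5.23e-05), and its groups did not overlap. CPD, promoted by CESTA and BEE1 in earlier work, was -1.48, -1.71, -1.70 and -1.56 in the mutant samples and 1.89, 2.09, 2.68 and 2.27 in the wild-type samples. It was thus lower in all mutant samples while BEE1 was higher in all of them. FT, promoted by CIB1 in earlier work, was -4.05, -4.15, -3.73 and -3.51 in the mutant samples and -3.27, -2.88, -2.84 and -2.86 in the wild-type samples. FT fell by 0.90 ± 0.16 (1.86-fold; limma adjusted p = 0.00196), or by 0.54 with normexp at an offset of 50, while CIB1 rose.

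Several calls among these related genes depended on a setting. With spike-in scaling CIB4, CIL1, BPE, bHLH60, bHLH79, AIF3, AIF4, BZR1, BIN2, LKP2 and ZTL were no longer called (limma adjusted p of 0.116 to 0.832), each with the same sign and an SE of 0.21 to 0.22. Their changes were then smaller for some, as for BZR1 (0.48), bHLH79 (0.48) and LKP2 (0.11), and larger for others, as for CIL1 (-0.47), ZTL (-0.30) and bHLH60 (-0.31). Without the 3 marked arrays CIB4, AIF4, PAR1, PRE1, LKP2 and bHLH60 were not called either (limma adjusted p of 0.0562 to 0.183). Averaging the probes of a gene ended the calls of CIB4, AIF4 and BPE (limma adjusted p of 0.237 to 0.612). Normexp at an offset of 50 moved the called changes of CIL1 to -0.24 and of AIF4 to 0.17, and that of BIN2 to 0.45. Probe averaging also moved AIF3 to 0.20 and bHLH60 to -0.34. BPE was 0.28 to 0.31 with quantile normalization, cyclic loess or the authors' value table, and LKP2 was 0.32 with normexp on negative-control spots. Quantile normalization, cyclic loess and the authors' value table each gave calls to CIB3, CIL2 and PRE4. The changes were then 0.18 to 0.20, -0.14 to -0.12 and 0.18 to 0.21 (limma adjusted p of 0.0204 to 0.0411). CRY2 gained a call without wild-type replicates 1 and 3 (0.22, limma adjusted p = 0.0408).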

How the data were processed

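Each array file holds spot intensity values on a linear scale, deposited as Agilent's Feature Extraction software gave them. Its processed signal has the background subtracted and was not normalized across arrays. The software is version 11.5.1.1 (array design 021169) per the file headers and 9.1.3.1 per the submitters' processing notes. The authors' value table was used as an alternative only. Its deposited values appear to be natural log values, since their slope against the natural log of processed signal was 0.975 to 1.02 with a median of -0.970 in every column. The log base is inferred; the sources used here do not give the centring.

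Of 43603 probes, 49 with a sole outlier spot on some array were left out, and 36163 matched 1 locus in the RefSeq gene table. Signals were divided by the array's 75th percentile, floored at 0.001 of it and log2-transformed. Testing required a probe to be detected well above background on every array of 1 group or both, and the brightest such probe stood for its gene. The test was limma's (3.58.1, in R 4.3.3) lmFit and eBayes without covariates. P-values were adjusted by Benjamini-Hochberg across 22082 genes, with 0.05 as the threshold. Single probes were also compared by an exact permutation test over 70 regroupings. Figures and counts used Python 3.11.15, pandas 2.3.3, numpy 2.4.6 and matplotlib 3.10.9. The fit was tested on simulated data. The number of arrays limits the precision.

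The genes described and the related lists were chosen with earlier results of these data known. All of these genes are named, with the 1 gene of highest Pearson r for each tested gene of the set. Of the tissue markers, only the leaf genes, the root genes and CRA1 are named. Alternatives covered scaling, background correction, detection filters, probe averaging, model options, the replicate number as a block and left-out arrays. Normexp ran on median spot signals. Over 20978 genes, deviations of same-numbered samples had correlations without a common sign (-0.112, -0.327, 0.206 and 0.0785), so the numbers were not taken as pairs. Among the 6 tested genes, replicate 1 was the lowest for 5 in each group. With the replicate number as a block, the SE of BEE2 was 0.18 in place of 0.27 and that of BEE3 0.19 in place of 0.17. No sequences are shown.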

Additional observations from a re-analysis of the deposited data

Results flagged for a closer look

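None of BEE1, BEE2, BEE3, CESTA, HBI1, CIB1 and CIB5 had a sample that stood far from the rest of its group on any of their probes. Over these probes, the related genes, the tissue markers and the genes named for likeness, 60 features in all, 7 of 120 groups of 4 had a highest or lowest sample whose distance to the nearest other sample exceeded Dixon's critical share of the group's range. Chance flags about 1 group in 20. In the mutant, replicate 1 was the highest for CIB2, at -2.86 where the others were -3.22 to -3.17, and for CIB3, at -2.13 where the others were -2.34 to -2.305. In the wild type, replicate 1 was the highest for BPE at -3.94 and the lowest for IBL1 at -3.00, for FT at -3.27 and for the root marker PYK10 at 4.94. Wild-type replicate 2 was the lowest for LKP2 at -1.80.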

How the results depend on the processing

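Of 144 changes computed for the 6 tested genes under 24 alternatives, 140 kept direction and call, 4 lost the call and 0 reversed. The changes ranged from 0.71 to 1.15 for BEE1, 0.81 to 1.48 for BEE2 and 0.76 to 1.17 for BEE3. They were 0.47 to 1.00 for HBI1, 0.53 to 0.80 for CIB1 and -0.57 to -0.22 for CIB5. The -0.22 came from normexp at an offset of 50, where the fitted background was uneven. Of 912 changes of the 38 related genes, 845 stayed called or stayed not called, 42 lost the call, 25 gained one and 0 called changes reversed. Among those not called, PRE4 went from 0.07 to -0.02 and CRY1 from 0.08 to -0.01 with spike-in scaling. With spike-in scaling 1510 genes rose and 2686 fell, 0 of the 6 genes and 0 of their probes fell, and 13 related genes rose in place of 21. Without the 3 marked arrays 2 of the 6 genes and 2 of their probes rose. The latter setting leaves 5 arrays. With spike-in scaling the SE of CIB5 was 0.21 in place of 0.08, and its difference was not smaller. Leaving out each array in turn gave 5733 to 6762 rises and 5014 to 5660 falls over all genes, 5 rises and 1 fall among the 6 genes, 5 to 7 rises and 1 fall among their probes, and 18 to 21 rises and 9 to 11 falls among related genes. With the replicate number as a block, 6113 genes rose and 5240 fell, 5 of the 6 genes rose and 1 fell, and bHLH60 was the sole related gene to lose its call (-0.22, limma adjusted p = 0.0668). A block for slide or scan could not be fitted, since each holds 1 group. Median scaling raised the median change of all genes from 0.04 to 0.09. CESTA is limited by signal close to background. On the dimmer probe of BEE2 the wild-type SD was 0.54 and the change 0.40, against 0.52 and 1.26 on the brighter probe. Why the BEE2 probes differ was not tested.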
